A study of Saccharomyces cerevisiae with 12 samples.

Results

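The 10 genes described here make or import inositol, make phosphatidylserine and convert it to phosphatidylcholine, phosphorylate choline, or control phospholipid synthesis in Saccharomyces cerevisiae. They are INO1 (YJL153C), ITR1 (YDR497C), CHO1 (YER026C), PSD1 (YNL169C), CHO2 (YGR157W), OPI3 (YJR073C), CKI1 (YLR133W), INO2 (YDR123C), INO4 (YOL108C) and OPI1 (YHL020C). The group was chosen by the polysomal level of INO1, which had been seen to be lower in the ΔES27Lb strain, and the other 9 genes were added for their role in the same pathway. The comparison of polysomal mRNA between the strains is therefore given for these genes as values without a test. All 10 are among the 7126 features of the count files, and all 10 were among the 6003 genes that passed the filter on low counts.

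The study asked whether ribosomes without the b-arm of expansion segment 27 of the large subunit rRNA (ES27Lb) associate with other mRNAs than wildtype ribosomes. The 4 groups were polysomal mRNA of ΔES27Lb, polysomal mRNA of wildtype, total mRNA of ΔES27Lb and total mRNA of wildtype, with 3 replicates each. Both strains are yeast of the NOY891 background (MATa, with the alleles can1-100, trp1, ade2-1, leu2-3, ura3-1 and his3-11) in which the chromosomal rDNA repeats are deleted (rdn1ΔΔ::HIS3). All of their rRNA comes from a plasmid with a URA3 marker and a tetracycline-repressible promoter in front of the rRNA operon, and this plasmid carries either the ES27Lb deletion or the wildtype sequence, so that the controls share the rDNA deletion, the promoter and the markers. Both plasmids also carry a point mutation in the small-subunit rRNA that gives resistance to hygromycin B. Cells were grown in YPD, a rich medium that contains inositol and choline, to an optical density of 0.8. The study's methods name hygromycin B in the medium for growth and for RNA isolation, and YPD alone for polysome profiling. Whether hygromycin B differed between total and polysomal mRNA is not given. Neither age nor a named treatment sets the strains apart. Polysomal mRNA was taken from the pooled polysome fractions of sucrose gradients, and total mRNA from the cell lysate. The P/T ratio is the log2 ratio of polysomal over total mRNA.

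Inositol-3-phosphate synthase, the product of INO1, makes inositol from glucose-6-phosphate, and INO1 is the classic reporter of phospholipid regulation in yeast. Ino2 and Ino4 bind as a heterodimer of basic helix-loop-helix proteins to the inositol-sensitive element UASINO in the promoters of these genes. Opi1 is a repressor that is held at the endoplasmic reticulum by phosphatidic acid and the membrane protein Scs2, and that enters the nucleus and represses INO1 when inositol is supplied.

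The hexamer CATGTG, the core of UASINO, was searched on both strands in the 500 bases before each start codon (S288C, R64, RefSeq). It was present before 9 of the 10 genes, all but OPI1, against 13.1% of 6019 protein-coding genes. The longer form CATGTGAA, which contains the hexamer, was present before 7 of the 10 genes, all but PSD1, OPI3 and OPI1, against 1.45% of the protein-coding genes. The genes were selected from a pathway known for this element, so the counts describe the promoters and test nothing. The hexamer reads in capitals in the following windows of 30 bases, which are shown to compare INO1 with the genes that carry the same letters. Each is written 5′ to 3′ on the strand that holds the hexamer.
INO1: ggctaaatgcggCATGTGaaaagtattgtc
INO1: ctttctctgctcCATGTGaattaaataagt
ITR1: ccttccccaccgCATGTGaaaaaagctcga
CHO1: tttagatgggtcCATGTGaaagctcaaagg
PSD1: agcaggcacaagCATGTGgaaaatttgttc
CHO2: ttattcccttctCATGTGaagagttcacac
OPI3: tcaatgagagtgCATGTGgaaagttgcacc
CKI1: acggtagagcacCATGTGaatattatacca
INO2: aagtacaacacaCATGTGaatttttttcag
INO4: aggtgagaaaaaCATGTGaatattttgttt
The upper INO1 window lies on the gene's own strand and its hexamer starts 243 bases before the start codon, and the lower one lies on the opposite strand at 178 bases. Those of ITR1, PSD1, CHO2, OPI3 and INO2 are on the gene's own strand, and those of CHO1, CKI1 and INO4 on the opposite one. ITR1 and CHO2 had 3 matches each, which include for CHO2 an overlapping pair on opposite strands, as INO2 also had. A match says only that these letters occur in the window.

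INO1 was the gene of the group that differed most between the strains. Polysomal mRNA held 14.2, 9.9 and 15.6 CPM (counts scaled to the library size, corrected by TMM) of INO1 in ΔES27Lb, against 32.3, 42.1 and 74.6 CPM in wildtype. Total mRNA held 17.9, 10.1 and 14.1 CPM in ΔES27Lb, against 27.6, 35.8 and 62.3 CPM in wildtype. All 6 ΔES27Lb libraries were below all 6 wildtype libraries, and wildtype replicate 3 was the highest in both pools. These levels rest on 134 to 1725 raw counts per library, and in bulk RNA fewer cells with INO1 mRNA cannot be told apart from less INO1 mRNA per cell. The means were 13.2 ± 3.0 CPM in polysomal mRNA of ΔES27Lb and 49.7 ± 22.1 CPM in that of wildtype, and 14.0 ± 3.89 CPM in total mRNA of ΔES27Lb and 41.9 ± 18.1 CPM in that of wildtype (SD, n = 3 each).

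The choice of the genes did not use total mRNA, which is taken to come from the same cultures as polysomal mRNA. In total mRNA INO1 was 2.99-fold lower in ΔES27Lb, a log2 difference of −1.58 (SE 0.37). The unadjusted p of edgeR's quasi-likelihood test was 0.00108, and the adjusted p over the 6003 genes tested was 0.747, so the difference did not pass 0.05. Of all genes tested, 0.516% had a value as low or lower. Over the 13 alternatives INO1 in total mRNA stayed between −1.85 and −1.17 on the log2 scale, with adjusted p between 0.0526 and 0.999. The value nearest to 0, −1.17, was that without wildtype replicate 3. In polysomal mRNA the fitted difference was −1.91 (SE 0.38), 3.75-fold lower in ΔES27Lb, and it stayed between −2.14 and −1.49 under the alternatives.

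The strains' libraries did not overlap for 1 of the 10 genes, INO1, which was lower in total and in polysomal mRNA. Over all genes tested, the ΔES27Lb libraries lay below those of wildtype for 3.02% in total mRNA, 2.6% in polysomal mRNA and 0.366%, or 22 genes, in both. The shares that include polysomal mRNA are given as background, and nothing is read from them, because the polysomal level of INO1 chose the group. None of the 10 genes lay above wildtype in all libraries of a pool, which happened for 5.05% of all genes in total and 3.02% in polysomal mRNA.

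**Figure D1:**
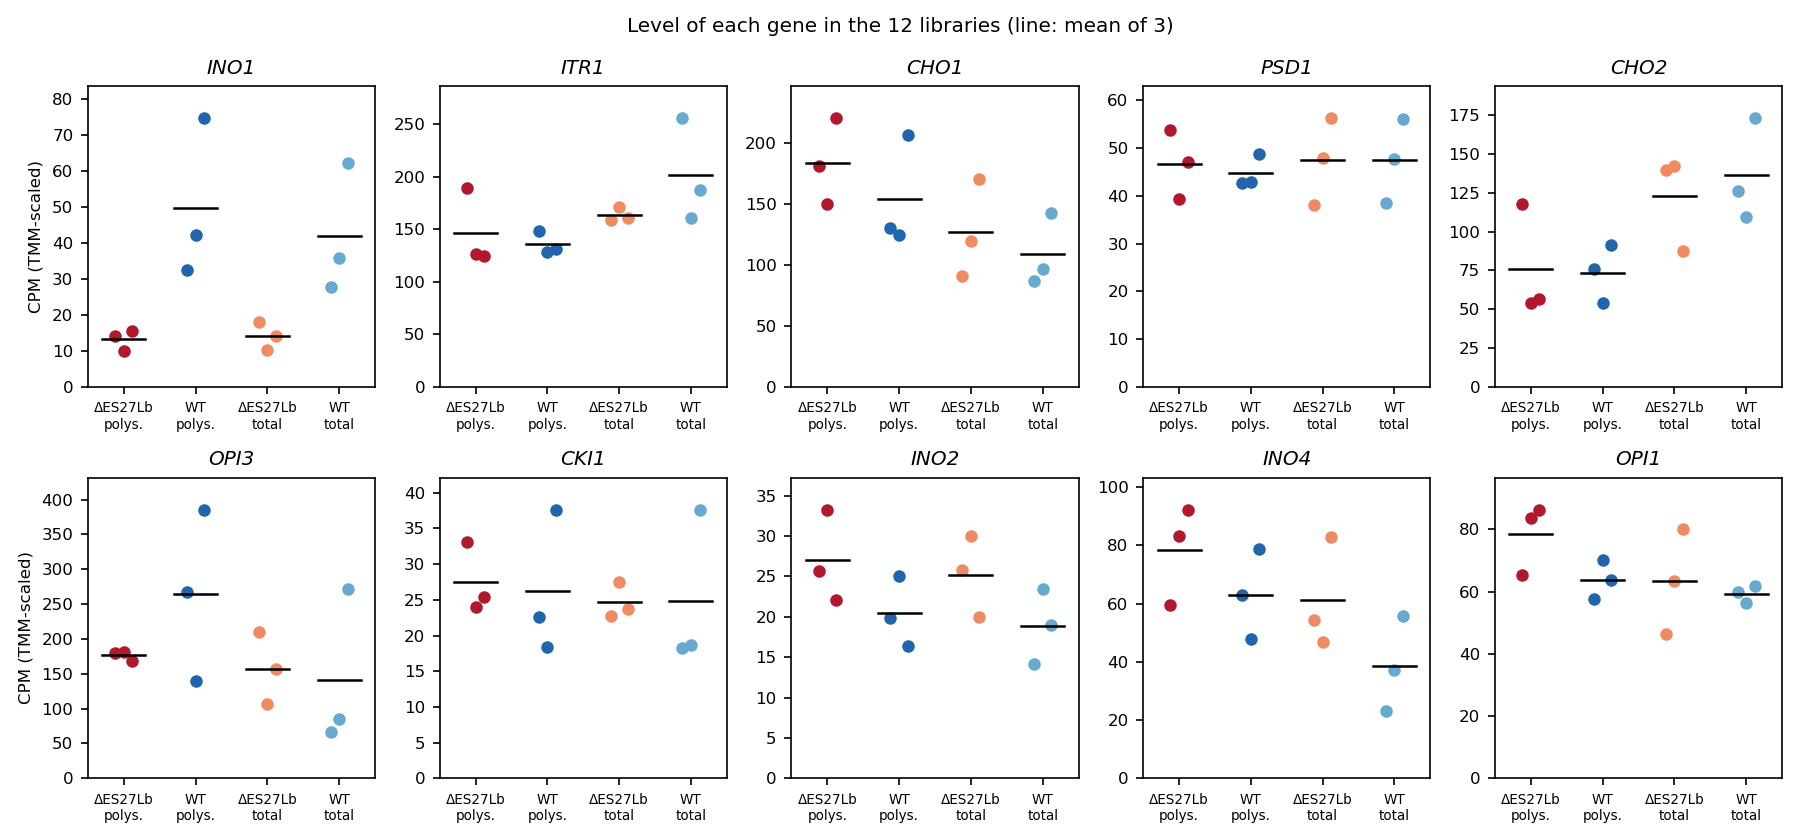
CPM, scaled by TMM, of each gene (y-axis from 0, own scale per gene) in the 12 libraries, by strain and mRNA pool; points are replicates and lines the mean of 3. INO1 lies at 9.9 to 17.9 CPM in the 6 ΔES27Lb libraries and at 27.6 to 74.6 CPM in the 6 wildtype libraries, and the strains overlap for each of the other 9 genes.

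ITR1, the main transporter that takes up inositol, gave 189.7, 126.5 and 124.5 CPM in polysomal mRNA of ΔES27Lb and 148.8, 128.7 and 131.4 CPM in that of wildtype. In total mRNA it gave 158.8, 171.1 and 160.9 CPM in ΔES27Lb and 255.9, 160.5 and 187.8 CPM in wildtype. The strains overlapped in both pools, and replicate 1 of wildtype was high in total mRNA. The log2 difference in total mRNA was −0.30 (SE 0.24).

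Of the enzymes that turn CDP-diacylglycerol into phosphatidylcholine, CHO1 encodes phosphatidylserine synthase. It gave 181.4, 150.4 and 220.4 CPM in polysomal mRNA of ΔES27Lb and 130.7, 125.0 and 207.0 CPM in that of wildtype. Total mRNA held 91.1, 119.3 and 170.2 CPM in ΔES27Lb and 86.4, 97.0 and 142.7 CPM in wildtype. Replicate 3 was the highest in every group for CHO1, and the strains overlapped. PSD1, the mitochondrial phosphatidylserine decarboxylase, gave 53.8, 39.4 and 47.0 CPM in polysomal mRNA of ΔES27Lb and 42.7, 42.9 and 48.7 CPM in that of wildtype. In total mRNA it gave 38.1, 47.9 and 56.2 CPM in ΔES27Lb and 38.4, 47.7 and 56.1 CPM in wildtype. The total mRNA values of PSD1 covered nearly the same range in both strains, with a log2 difference of −0.00 (SE 0.21).

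CHO2, which adds the first methyl group to phosphatidylethanolamine, gave 117.8, 54.0 and 56.7 CPM in polysomal mRNA of ΔES27Lb and 75.6, 54.0 and 91.1 CPM in that of wildtype. Total mRNA held 139.6, 142.3 and 87.5 CPM in ΔES27Lb and 126.4, 109.6 and 173.0 CPM in wildtype. CHO2 was lower in polysomal than in total mRNA in every culture, and the strains overlapped. OPI3, the methyltransferase of the later methylation steps, gave 179.6, 181.7 and 168.8 CPM in polysomal mRNA of ΔES27Lb and 267.2, 139.7 and 385.4 CPM in that of wildtype. In total mRNA it gave 209.3, 106.4 and 156.6 CPM in ΔES27Lb and 66.5, 84.8 and 272.4 CPM in wildtype. The wildtype libraries of OPI3 spread around those of ΔES27Lb in both pools. The fitted difference in polysomal mRNA was −0.58 (SE 0.50) on the log2 scale, the lowest of the group after INO1, and 0.16 (SE 0.49) in total mRNA.

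CKI1, the choline kinase that opens the Kennedy route from free choline, gave 33.0, 24.0 and 25.4 CPM in polysomal mRNA of ΔES27Lb and 22.6, 18.5 and 37.6 CPM in that of wildtype. Total mRNA held 22.7, 27.5 and 23.7 CPM in ΔES27Lb and 18.3, 18.7 and 37.6 CPM in wildtype. Wildtype replicate 3 was the highest library of CKI1 in both pools, and the strains overlapped.

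The fitted differences of the 3 regulators were above 0 in both pools and none was called in total mRNA, and that of OPI1 in total mRNA turned to −0.08 with library totals in place of TMM and to −0.13 without ΔES27Lb replicate 3. INO2, which carries the activation domain of the heterodimer, gave 25.6, 33.3 and 22.1 CPM in polysomal mRNA of ΔES27Lb and 19.8, 25.1 and 16.3 CPM in that of wildtype. In total mRNA it gave 25.8, 30.0 and 19.9 CPM in ΔES27Lb and 14.2, 23.4 and 19 CPM in wildtype. The strains overlapped for INO2 in both pools, and the log2 differences were 0.40 (SE 0.26) in polysomal and 0.42 (SE 0.26) in total mRNA. INO4, its partner, gave 59.6, 83.3 and 92.2 CPM in polysomal mRNA of ΔES27Lb and 62.9, 47.7 and 78.6 CPM in that of wildtype. Total mRNA held 54.4, 46.7 and 82.8 CPM in ΔES27Lb and 23.2, 37.1 and 55.9 CPM in wildtype. For INO4 the strains overlapped, and the log2 difference in total mRNA was 0.66 (SE 0.33). OPI1, the repressor, gave 65.3, 83.8 and 86.3 CPM in polysomal mRNA of ΔES27Lb and 57.6, 70.1 and 63.7 CPM in that of wildtype. In total mRNA it gave 46.5, 63.4 and 80.0 CPM in ΔES27Lb and 59.7, 56.5 and 61.7 CPM in wildtype. The strains overlapped for OPI1 in both pools.

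By edgeR, 0 of the 10 genes passed an adjusted p of 0.05 in the strain comparison of total mRNA, against 0% of all genes tested. Their adjusted p ran between 0.747 and 0.999, and before adjustment INO1 alone was at or under 0.05. DESeq2 (Wald test) also called 0 of them. The median log2 difference over the 10 genes in total mRNA was 0.05, against −0.00 over all genes, with 5 genes above 0 and 5 below. In polysomal mRNA, and for P/T compared between the strains, edgeR called 0% of all genes.

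**Figure D2:**
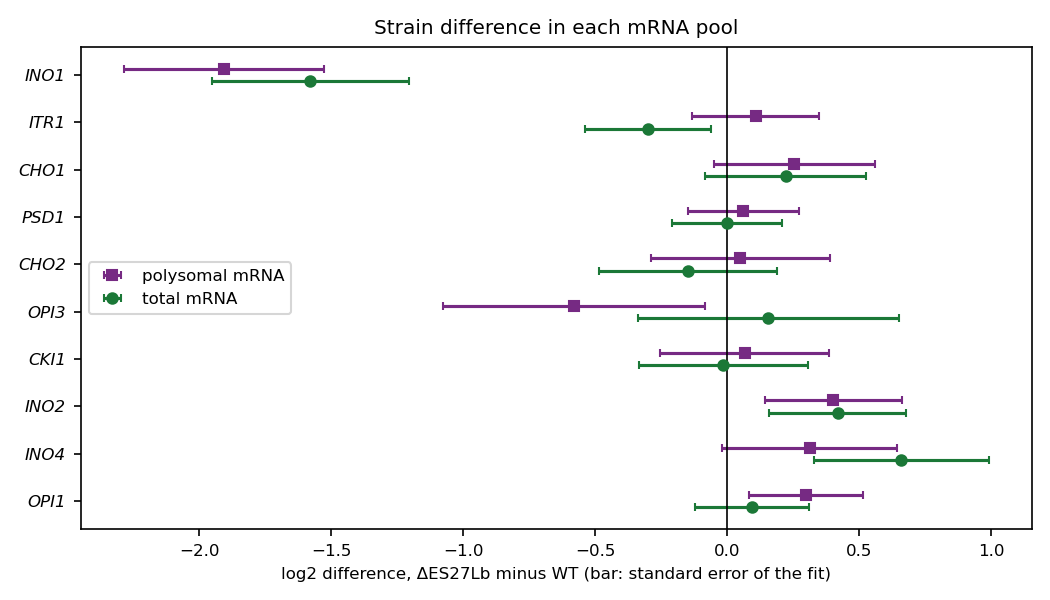
Fitted log2 difference, ΔES27Lb minus wildtype (x-axis), of each gene (rows) in polysomal mRNA (squares) and in total mRNA (circles); bars are the standard error. INO1 stands at −1.91 in polysomal and −1.58 in total mRNA, while the other 9 genes lie between −0.58 and 0.66.

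Levels were compared between genes as RPKM, which is CPM divided by the coding length in kilobases. OPI3 was the most abundant and CHO1 the second in each of the 4 groups. OPI3 averaged 284.5 ± 11.2 RPKM in polysomal mRNA of ΔES27Lb and 425.3 ± 198 RPKM in that of wildtype, and CHO1 221.5 ± 42.2 RPKM in ΔES27Lb and 185.6 ± 55.1 RPKM in wildtype (SD, n = 3 each). INO4 and ITR1 came next, in either order. Between OPI3 and CHO1 the means differed by more than the sum of their SDs in polysomal mRNA of ΔES27Lb and by less in the other 3 groups. OPI1, PSD1 and CHO2 lay in the middle, and INO2 lay lower, in place 9 in both wildtype groups. In the polysomal groups CHO2 could not be ordered against PSD1 or INO2 beyond the spread, nor PSD1 against INO2 in ΔES27Lb.

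INO1 was the lowest of the 10 in ΔES27Lb, with 8.3 ± 1.87 RPKM in polysomal and 8.8 ± 2.43 RPKM in total mRNA, below CKI1 by more than the sum of the SDs. In wildtype CKI1 had the lowest mean, with 15.0 ± 5.75 RPKM in polysomal and 14.2 ± 6.31 RPKM in total mRNA. INO1 was in place 6 in polysomal mRNA at 31.0 ± 13.8 RPKM and in place 8 in total mRNA at 26.2 ± 11.3 RPKM. These wildtype places are within the spread. In both pools CKI1 differed from INO2, and INO1 from PSD1 and INO2, by less than the sum of the SDs. Over the 12 libraries the mean of INO1 stood at the 32.6th percentile of all genes with a coding length and that of OPI3 at the 88.8th.

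The P/T ratio of INO1 was close to 0 in both strains. The single cultures of ΔES27Lb gave −0.33, −0.03 and 0.15 on the log2 scale, and those of wildtype 0.22, 0.23 and 0.26. The cultures of ΔES27Lb were below those of wildtype for 1 of the 10 genes, INO1, against 4.26% of all genes tested, and above for 0, against 3.25%. P/T of INO1 contains the polysomal level that chose the group, so nothing is read from its place against that share. The fitted P/T of INO1 was −0.08 (SE 0.37) in ΔES27Lb and 0.24 (SE 0.36) in wildtype, and with library totals in place of TMM it was −0.37 in ΔES27Lb and −0.17 in wildtype. P/T of INO1 in ΔES27Lb minus that in wildtype was −0.33 (SE 0.52), against −1.58 for the strain difference of INO1 in total mRNA.

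P/T separated the other genes more than the strains did. CHO2 gave log2 P/T of −0.24, −1.40 and −0.62 in the ΔES27Lb cultures and −0.74, −1.02 and −0.92 in the wildtype cultures. CHO1 gave 0.99, 0.33 and 0.37 in ΔES27Lb and 0.60, 0.37 and 0.54 in wildtype. All 6 cultures were below 0 for CHO2 and above 0 for CHO1. INO4 gave 0.13, 0.84 and 0.16 in ΔES27Lb and 1.43, 0.36 and 0.49 in wildtype. OPI3 gave −0.22, 0.77 and 0.11 in ΔES27Lb and 2.01, 0.72 and 0.50 in wildtype. INO4 was above 0 in all 6 cultures and OPI3 in 5, and wildtype culture 1 was the highest for both. ITR1 gave 0.26, −0.43 and −0.37 in ΔES27Lb and −0.78, −0.32 and −0.52 in wildtype, so that 5 cultures were below 0. PSD1, CKI1, INO2 and OPI1 had values on both sides of 0, between −0.28 and 0.54.

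By edgeR without a block, 0 of the 9 genes other than INO1 passed an adjusted p of 0.05 for P/T in ΔES27Lb, against 0% of all genes, and 0 in wildtype, against 0.117%. At an unadjusted p of 0.05 or less there were 0 in ΔES27Lb and 2 in wildtype, ITR1 and CHO2. DESeq2 called 0 in either strain. Total and polysomal libraries of the same strain and number were taken as one culture and deviated together, though only weakly in ΔES27Lb culture 2. With the culture as a block 5 of the 9 genes passed in wildtype. Higher in polysomal mRNA were OPI3 (1.07, SE 0.29, adjusted p = 0.0208 by edgeR), INO4 (0.76, SE 0.23, adjusted p = 0.0323) and CHO1 (0.50, SE 0.17, adjusted p = 0.0458), and lower were CHO2 (−0.90, SE 0.21, adjusted p = 0.0144) and ITR1 (−0.54, SE 0.18, adjusted p = 0.0424). Of all genes, 16.9% were called higher and 15.6% lower in this fit.

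The blocked calls depended on single cultures. Without wildtype replicate 1 CHO2 was left, without wildtype replicate 3 OPI3 was left, and without wildtype replicate 2 or ΔES27Lb replicate 3 CHO2, OPI3 and INO4 were left. Without ΔES27Lb replicate 1 the call of INO4 was lost. In ΔES27Lb the blocked fit called 0 of the 9 genes, against 2.88% of all genes higher and 4.08% lower, with an unadjusted p of 0.05 or less for 2, CHO2 (−0.75, SE 0.21, adjusted p = 0.0563) and CHO1 (0.57, SE 0.17, adjusted p = 0.0632). DESeq2 with the same block called these 2, and so did the blocked edgeR fit without wildtype replicate 1. P/T in ΔES27Lb minus P/T in wildtype ran over the 10 genes from −0.74 (SE 0.70) for OPI3 to 0.41 (SE 0.34) for ITR1, given as values without a test.

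**Figure D3:**
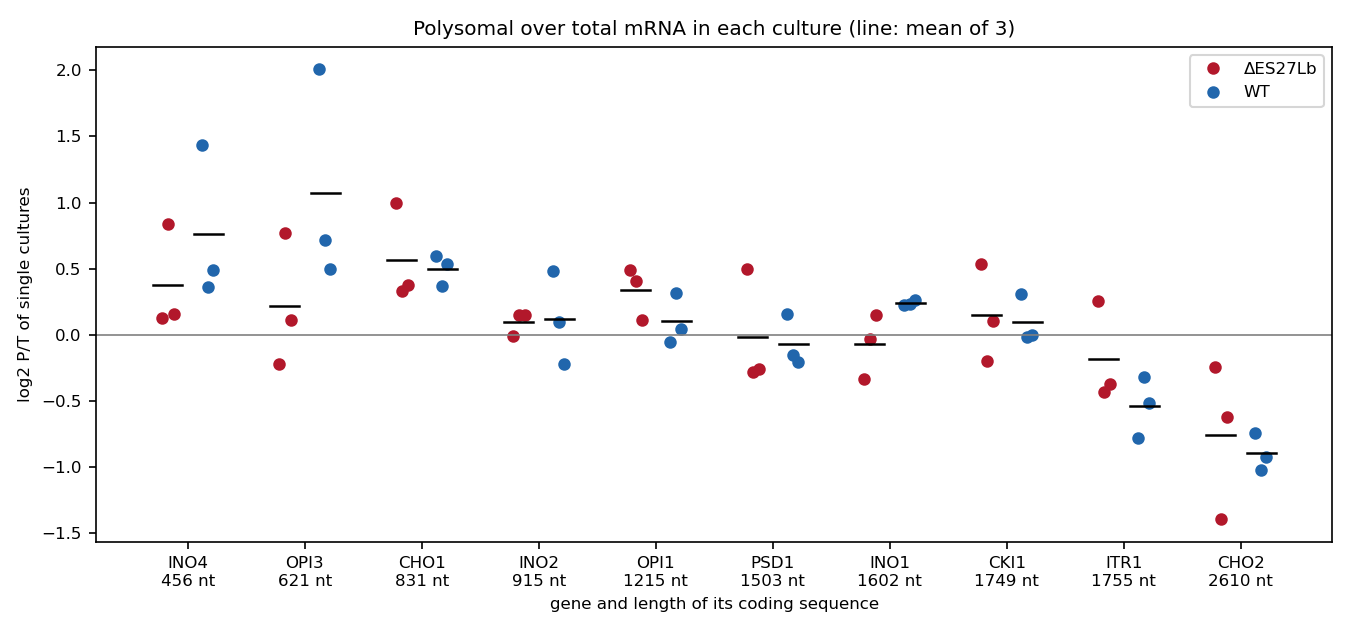
Log2 P/T of each culture (y-axis) for the 10 genes, ordered by the length of the coding sequence (x-axis), ΔES27Lb left and wildtype right for each gene; lines are the mean of 3. INO4, at 456 nt the shortest, lies above 0 in all 6 cultures and CHO2, at 2610 nt the longest, below 0 in all 6.

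The order of the genes by P/T followed the length of their coding sequences. Spearman's rho between length and fitted P/T was −0.83 in ΔES27Lb and −0.89 in wildtype over the 10 genes, against −0.42 in ΔES27Lb and −0.66 in wildtype over 5695 genes. These correlations are across genes, which share libraries and are no independent replicates. In single cultures rho over the 10 genes was −0.12, −0.93 and −0.75 in ΔES27Lb and −0.85, −0.88 and −0.77 in wildtype, so that ΔES27Lb culture 1 stood apart. The part of coding length in the P/T of the single genes was not tested.

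**Figure D4:**
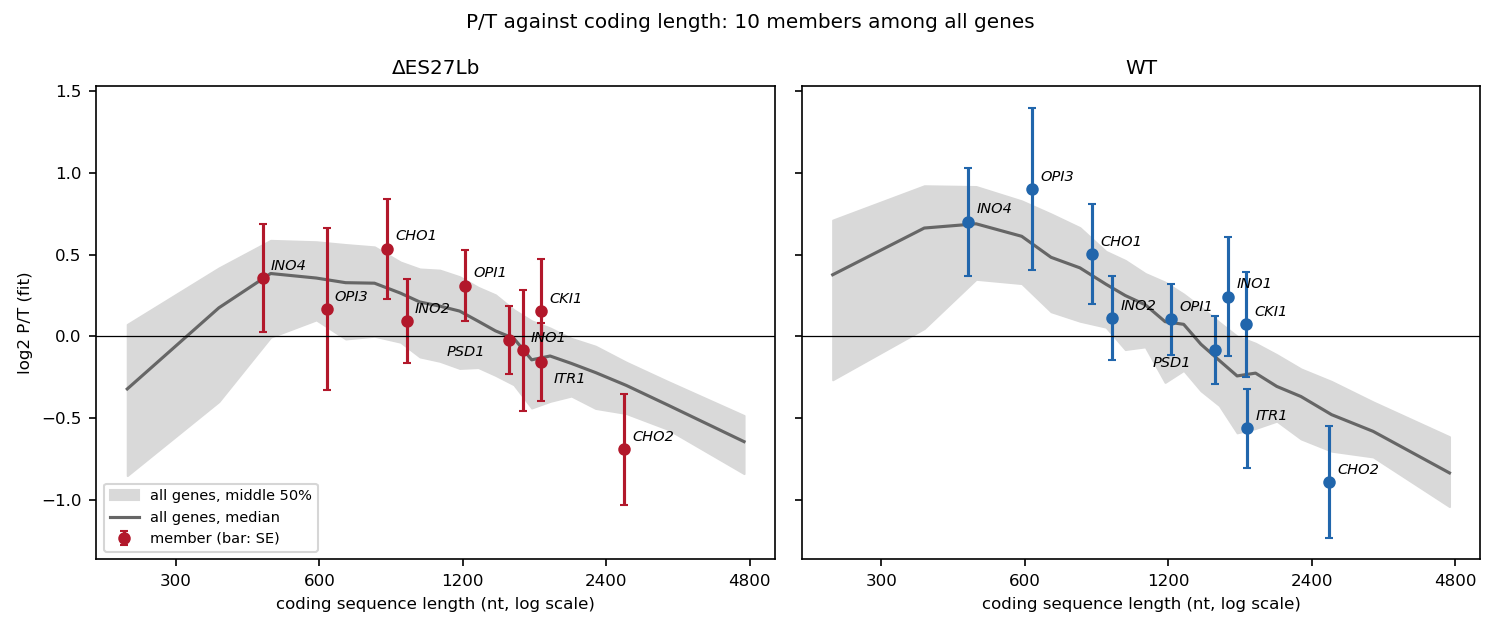
Fitted log2 P/T (y-axis) against coding sequence length (x-axis, log scale) in ΔES27Lb (left) and wildtype (right); points are the 10 genes with standard errors, the grey line is the median and the band the middle 50% of all genes in groups of equal size by length. INO4 (0.36 in ΔES27Lb, 0.70 in wildtype) and CHO2 (−0.69 in ΔES27Lb, −0.89 in wildtype) lie at the ends of the length range of the 10 genes.

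Over the 12 libraries the other genes of the group did not follow INO1 closely. Among 5188 genes ranked by Pearson's r of log2 CPM with INO1, OPI3 was in place 554 (r = 0.34), and CKI1, CHO2, PSD1, ITR1 and CHO1 came in places 1327 to 2614 with r between 0.18 and −0.03. INO4 (r = −0.20), OPI1 (r = −0.35) and INO2 (r = −0.64) stood in places 3600, 4425 and 5145. Among themselves the members' closest pairs were CHO1 with INO4 (r = 0.83) and ITR1 with CHO2 (r = 0.75), and the most opposed was ITR1 with INO4 (r = −0.74). These values describe 12 libraries, taken as 6 cultures with 2 pools per culture, and carry no test.

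The 5 genes closest to INO1 were MSK1 (r = 0.86), RIM15 (r = 0.86), YPR145C-A (r = 0.85), YNL320W (r = 0.84) and GRE1 (r = 0.82). MSK1 encodes the mitochondrial lysyl-tRNA synthetase, RIM15 a protein kinase of nutrient signalling and GRE1 a stress-induced hydrophilin. They were picked by their correlation with INO1 over these same libraries, which INO1 splits by strain. Strain differences below 0 follow from that choice, and nothing is read from them. In total mRNA their fitted log2 differences were −0.53 for MSK1, −0.46 for RIM15, −1.07 for YPR145C-A, −0.53 for YNL320W and −1.12 for GRE1, against −1.58 for INO1. In polysomal mRNA they were −0.34 for MSK1, −0.75 for RIM15, −1.94 for YPR145C-A, −0.42 for YNL320W and −1.66 for GRE1, against −1.91 for INO1. GRE1 gave 11.7, 17.2 and 24.9 CPM in polysomal mRNA of ΔES27Lb and 15.4, 43.5 and 111 CPM in that of wildtype, with wildtype replicate 3 the highest as for INO1.

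**Figure D5:**
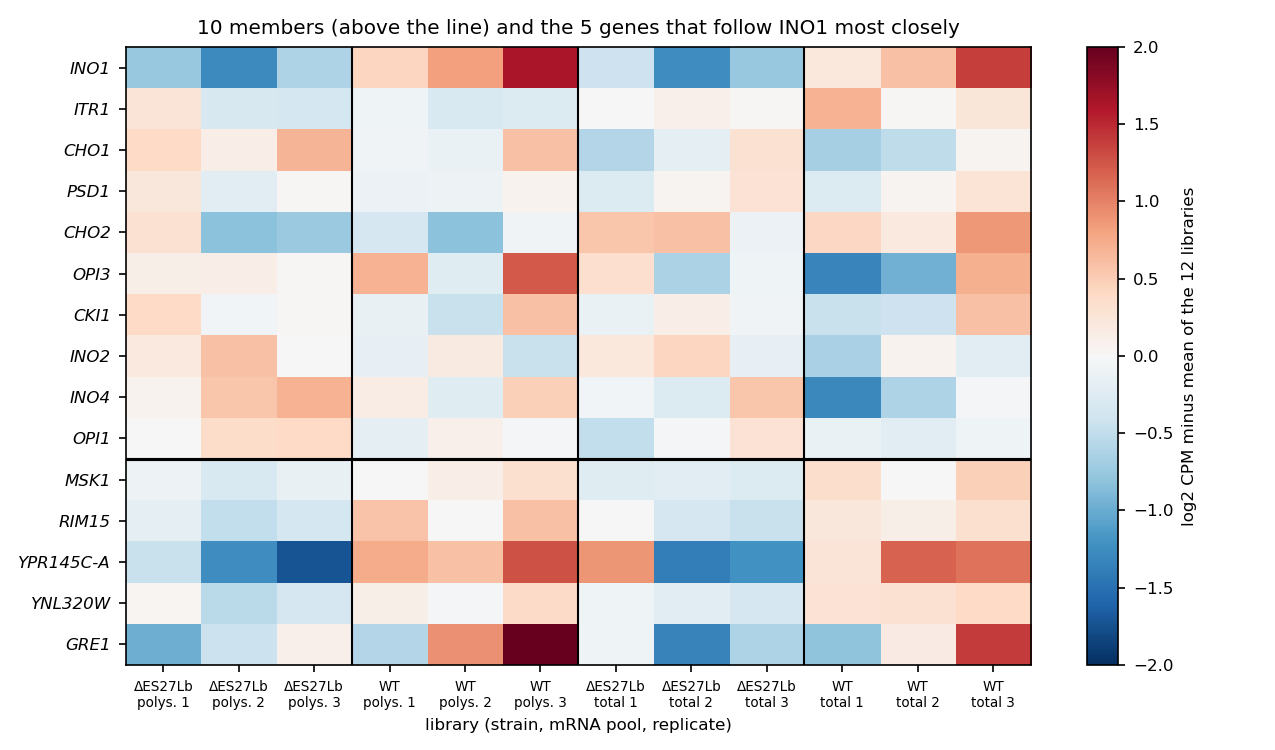
Log2 CPM minus the mean of the 12 libraries (colour, blue below and red above the mean, limited to 2 either way) for the 10 genes above the line and the 5 genes closest to INO1 below it (rows) in each library (columns). INO1 is below its mean in all 6 ΔES27Lb libraries and above it in all 6 wildtype libraries, and OPI3, the nearest of the other 9 by rank (r = 0.34), is not.

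The rest of the pathway was followed in 40 further genes in 6 lists, all of which were tested. In the strain comparison of total mRNA 0 of the 40 were called by edgeR and 0 reached 0.05 before adjustment, with a median log2 difference of −0.09. For P/T without a block 0 were called in either strain, with unadjusted p of 0.05 or less for 4 in ΔES27Lb, against 15.0% of all genes, and 16 in wildtype, against 28.5%. With the culture as a block 1 gene was called higher and 0 lower in ΔES27Lb, against 2.88% and 4.08% of all genes. In wildtype 5 were called higher and 11 lower, against 16.9% and 15.6% of all genes.

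A list of 7 other enzymes of phospholipid synthesis held CDS1, TAM41, PIS1, PSD2, PGS1, GEP4 and CRD1. Their total mRNA differences ran from −0.39 for TAM41, a mitochondrial CDP-diacylglycerol synthase, to 0.46 for GEP4, the phosphatidylglycerophosphate phosphatase. P/T in ΔES27Lb ran from −0.44 for PGS1, the phosphatidylglycerophosphate synthase, to 0.34 for CRD1, the cardiolipin synthase. In wildtype the blocked fit called CDS1 lower (−0.78), and PIS1, the phosphatidylinositol synthase, and GEP4 (0.60) higher. Among the 5 other enzymes of the Kennedy route, total mRNA ran from −0.20 for PCT1 to 0.22 for EKI1, the ethanolamine kinase. Their P/T ran from −0.32 for EPT1 to 0.20 for ECT1 in ΔES27Lb and from −0.30 for EKI1 to 0.39 for ECT1 in wildtype, and 0 of the 5 were called with the block in either strain.

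Among the 5 other genes of inositol and choline supply, total mRNA ran from −0.36 for GIT1, the glycerophosphoinositol transporter, to 0.24 for INM1, an inositol monophosphatase. P/T in ΔES27Lb ran from −0.62 for GIT1 to 0.42 for INM2, the other inositol monophosphatase. With the block in wildtype ITR2, the second inositol transporter (−0.75), and HNM1, the choline transporter, were called lower and INM2 (0.65) higher. ITR2 thus lay on the same side as ITR1.

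Of the 13 genes of phosphatidic acid synthesis and turnover, 10 had a total mRNA difference below 0, against 50.04% of all genes, and their median was −0.17, against −0.00. With the replicate number as a block 9 were below 0, with a median of −0.10 against 0.03 over all genes. Without a block the total mRNA values ran from −0.57 for GPT2, a glycerol-3-phosphate acyltransferase, to 0.11 for SLC1, and 0 were called. Single wildtype libraries weighed on some of them. Wildtype replicates 1 to 3 gave 132.9, 56.5 and 62.3 CPM for SCT1, 71.1, 31.4 and 32.9 CPM for ALE1 and 38.2, 57.4 and 207 CPM for AYR1. In polysomal mRNA the lean was not seen, as 9 of the 13 were above 0, with a median of 0.04 against −0.01 over all genes. P/T in ΔES27Lb ran from −0.61 for ALE1 to 0.80 for AYR1, and in wildtype the blocked fit called ALE1 (−1.05), SCT1 and NTE1 lower and AYR1 (0.95) higher. The 4 genes of fatty acid precursors had P/T below 0 in both strains, from −0.62 for FAS1 to −0.02 for ACS2 in ΔES27Lb and from −0.71 for ACC1 to −0.27 for ACS2 in wildtype. ACC1, FAS1 and FAS2 were called lower with the block in wildtype. In total mRNA these 4 lay between −0.16 for FAS1 and 0.16 for FAS2.

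Among the 6 other regulators of INO1, SCS2, the membrane protein that tethers Opi1, was not called for P/T without a block. That fit gave a log2 P/T of 0.89 in ΔES27Lb and 0.998 in wildtype. With the block SCS2 gave 0.89 in ΔES27Lb and 1.02 in wildtype. It was called higher there in both strains, at an adjusted p of 0.045 in ΔES27Lb and 0.0116 in wildtype by edgeR. Of all genes, this fit called 2.88% higher in ΔES27Lb and 16.9% in wildtype. Without ΔES27Lb replicate 1, 2 or 3, or without wildtype replicate 3, the blocked fit called 0 genes higher in ΔES27Lb. The call of SCS2 in that strain thus depended on single cultures. HAC1, the transcription factor of the unfolded protein response, had the lowest P/T of this list in ΔES27Lb (−1.32), and IRE1, its upstream sensor, in wildtype (−1.19). In ΔES27Lb HAC1 gave 723, 250 and 189 CPM in total and 133, 187 and 144 CPM in polysomal mRNA, so replicate 1 weighed on its value. With the block P/T of HAC1 was −1.06 in ΔES27Lb and −1.04 in wildtype. IRE1 and SIN3 were called lower with the block in wildtype. In total mRNA the list ran from −0.67 for IRE1 to 0.45 for SCS2.

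The libraries held 15050764 to 21532842 counts. RNAs that are not translated (83 small nucleolar, small nuclear and other RNAs) summed to 80.5 to 102 CPM in the polysomal libraries and 339 to 595 CPM in the total libraries, so the pools matched their labels. The strain label could not be checked from counts per gene, as the deletion lies in the rRNA. Each gene of the group has a coding sequence without an intron and overlaps no other gene annotated in R64, and how reads with several matches were counted is not given in the sources used here. Nothing in the labels says that replicates came from separate cultures, and a culture is used here for the total and polysomal library of one strain and number, so p-values measure the spread between these samples, which may be technical.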

How the data were processed

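Poly(A)-enriched RNA of the 12 samples was sequenced on an Illumina HiSeq3000. Per the labels and the study's methods, the authors aligned the reads to strain BY4742 with HISAT2 and deposited raw read counts per gene from featureCounts. The submitters' processing notes also name FastQC. Versions, annotation, strand setting and handling of multiple matches are not given in the sources used here.

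Counts were fitted with edgeR 4.0.16 in R 4.3.3 (quasi-likelihood test, TMM, default filter on low counts, 1 mean per group over all 12 libraries, Benjamini-Hochberg adjustment over 6003 genes, threshold 0.05). The study's methods name DESeq2 for P/T; its Wald test (DESeq2 1.42.0) was an alternative, as were its size factors, library totals, other filters, a fit of only the libraries compared, leaving out each culture, and a replicate block. Within a strain, libraries with the same number were taken as one culture: their deviations from the group means correlated in all 6 cultures (r = 0.20 to 0.90 over 5189 genes). The same-numbered total libraries of the strains correlated at r = 0.18 to 0.43, and the polysomal ones at −0.10 to 0.55. The lowest value within a strain, 0.20 for ΔES27Lb culture 2, was below the 0.55 of the polysomal libraries numbered 2 of the strains. The pairing is therefore not settled by the counts for that culture. DESeq2 with a block and the blocked fits that left out a culture were chosen after seeing the data. Replicates differed by more than sampling noise (chi-square per degree of freedom 75.1 to 593).

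For P/T per culture 0.5 was added as prior count. The members and lists were chosen with earlier results of these data known. The named genes were the 10 members, the called genes or the outermost gene per direction of each list, and the 5 genes closest to INO1 by Pearson's r (mean log2 CPM of at least 3). Coding lengths, names and windows came from R64 (S288C, RefSeq) by gene name, and no coordinates are given because the counts were made on BY4742. The edgeR fits, with and without a block, were run on simulated counts for P/T in wildtype and for the strain comparison of total mRNA. The run required only that the mean estimated log2 difference come near the simulated one. It used an assumed culture effect and the spread of the blocked fit, and nothing about the calls is read from it. Plots used matplotlib 3.10.9.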

Additional observations from a re-analysis of the deposited data

How the results depend on the processing

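The number of genes called for P/T depended on the test. In ΔES27Lb edgeR called 0, DESeq2 94, edgeR with library totals 10, with a replicate block 418 and DESeq2 with a replicate block 1121, and leaving out 1 culture gave 0 to 7. In wildtype edgeR called 7, DESeq2 769, library totals 46, the replicate block 1950, only the libraries compared 3 and DESeq2 with the block 2179, and leaving out 1 culture gave 0 to 5. DESeq2 called 4 genes in total mRNA, 4 in polysomal mRNA and 1 in the difference in P/T, where edgeR called 0. Of the 9 genes tested for P/T, 5 were called in wildtype with the replicate block and 5 by DESeq2 with it (1 to 5 when a culture was left out of the blocked edgeR fit), and 0 in ΔES27Lb with the block and 2 by DESeq2 with it (0 to 2 when a culture was left out). No alternative called a member in the strain comparison of total mRNA, where the number as a block gave INO1 a log2 difference of −1.53.

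Values near 0 changed sign. With library totals, which moved the median of all genes to −0.34 for P/T in ΔES27Lb and −0.47 in wildtype, P/T was −0.12 for OPI3, −0.10 for CKI1 and −0.21 for INO2 in ΔES27Lb and −0.17 for INO1, −0.34 for CKI1, −0.31 for INO2 and −0.31 for OPI1 in wildtype, and total mRNA was −0.0183 for OPI3 and −0.0793 for OPI1. P/T of PSD1 in ΔES27Lb was 0.0244 with DESeq2 and 0.0233 with its size factors, and CKI1 in total mRNA was 0.0707 with the block. Leaving out 1 culture gave, for P/T in ΔES27Lb, −0.19 to 0.08 for INO1, −0.27 to 0.14 for PSD1, −0.066 to 0.41 for OPI3 and −0.0532 to 0.34 for CKI1, for P/T in wildtype −0.0022 to 0.26 for INO2, and in total mRNA −0.0696 to 0.47 for CHO1, −0.16 to 0.14 for PSD1, −0.28 to 0.0656 for CHO2, −0.24 to 1.06 for OPI3, −0.24 to 0.42 for CKI1 and −0.13 to 0.28 for OPI1. The cause was not tested. Of the 640 values of single genes under the alternatives, 50 changed sign, among them 8 in polysomal mRNA (ITR1, PSD1, CHO2 and CKI1) and 11 in the difference in P/T (CHO1, PSD1, CHO2, CKI1 and INO2), and 590 kept it. At 15050764 counts or more per library the spread between replicates, not depth, set the precision.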

Other observations

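The genes that ran most opposite to INO1 of the 5188 ranked were HIS4 (r = −0.97), an enzyme of histidine synthesis, and ASN1 (r = −0.90), an asparagine synthetase. Both were named after their values were seen. HIS4 gave 224, 299 and 270 CPM in polysomal mRNA of ΔES27Lb and 188, 181 and 142 CPM in that of wildtype, and 225, 274 and 267 CPM in total mRNA of ΔES27Lb and 192, 173 and 158 CPM in that of wildtype. All 6 ΔES27Lb libraries of HIS4 were above all 6 wildtype libraries. HIS4 was picked for running opposite to INO1, whose libraries split by strain. This separation follows largely from that choice, and nothing is read from it.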
